A study of Mus musculus with 10 samples.

Results

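The hnRNP, SR and snRNP splicing proteins were followed as the 43 genes of the footprint count table whose mouse symbols begin with Hnrnp, Srsf followed by a digit, or Snrp, out of 22373 genes in all. The rule used the symbols and no measured value, though earlier results of these data were known when the genes were chosen. They comprise 20 Hnrnp, 11 Srsf and 12 Snrp genes, and all 43 had enough footprints to be among the 13484 genes tested. Ribosome-protected fragments were sequenced (Ribo-seq) from the neocortex of wild-type CD-1 mice at embryonic days E12.5, E14, E15.5 and E17 and at the day of birth (P0), with 2 libraries per stage and 10 libraries in all. Each library came from pooled brains of both sexes. No cycloheximide was used to stall ribosomes, lysates were digested with RNase T1 and RNase A, and fragments were taken from the 80S monosome fractions. A footprint count therefore reports ribosomes on the mRNA of a gene, with mRNA level and ribosome load combined, and the tissue was not sorted by cell type.

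Introns are removed from pre-mRNA by the spliceosome, which assembles anew on each intron from small nuclear ribonucleoprotein particles (snRNPs). A snRNP carries an RNA within a ring of Sm proteins, together with proteins particular to that RNA. SR proteins, named for a domain rich in arginine and serine, mostly bind exons and recruit the spliceosome to nearby splice sites, while hnRNP proteins coat nascent transcripts and often keep sites from being used. The balance of both classes sets which exons are included, and neurons are known for their extensive alternative splicing.

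Library totals ran from 7544404 counts (P0 library 1) to 36129988 counts (E14 library 2). Levels are given as CPM, the depth-scaled count of edgeR with its TMM factors, and they are not corrected for coding length, so levels were compared between stages and not between genes. The P0 libraries differed from each other more than the libraries of any other stage: the SD of the log2 ratio of library 2 to library 1 was 0.53 at P0 and 0.13 to 0.22 elsewhere, over 4559 genes that averaged 500 counts or more. All 10 neocortex markers were present at every stage, with summed levels between 742.3 and 1117 CPM. The make-up of the tissue changed over the same stages. All 10 progenitor markers were lower at P0 than at E12.5, their sum falling from 1750 to 1832 CPM down to 247.6 to 260.5 CPM, and all 10 neuron markers were higher, their sum moving from 2180 to 2232 CPM up to 8368 to 9585 CPM. Summed erythrocyte markers, mostly globins, went from 11013 to 11399 CPM at E12.5 to 1438 to 1861 CPM at P0, all 7 of the tested genes (of 8) being lower. Choroid plexus markers summed to 279.4 to 332.1 CPM at E12.5, 1124 to 1130 CPM at E14 and at most 14.4 CPM from E15.5 on. In these later stages the defining genes Kcnj13 and Cldn2 were at 0 in 1 or both libraries of each stage. Meningeal markers summed to at least 59.4 CPM at E12.5 and E14 and at most 6.57 CPM later, ganglionic eminence markers, 6 of 7 called higher, went from at most 14.8 CPM at E12.5 to at least 161.8 CPM at P0, endothelial markers were at most 31.8 CPM and microglial markers at most 28.8 CPM throughout. The part of these lists in the changes below was not tested. In bulk tissue, fewer cells of a type and less RNA per cell cannot be told apart.

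Most of the splicing protein genes lost footprints between E12.5 and P0. A gene was called changed when its adjusted p (limma-voom, Benjamini-Hochberg over all 13484 genes) was under 0.05 and its fold change at least 1.25. By that rule 33 of the 43 were lower at P0, against 32% of all genes tested, and 2 were higher, against 30.1%. The 43 genes had a median log2 fold change of -0.99, with quartiles at -1.39 and -0.49, while the median over all genes tested was -0.013. In 40 of them the fitted change lay below 0. The 2 genes that rose were Snrpn and Srsf12.

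Because a few abundant genes can shift the scaling of a library, the comparison was repeated with total counts alone. The median of all genes then moved to 0.51 and that of the splicing genes to -0.46. A change of scaling shifts all genes by nearly the same amount. The distance of -0.98 between the medians is therefore not a separate check. Under that scaling 19 of the 43 were called lower (18.6% of all genes) and 4 higher (47.8% of all genes), the latter being Snrpn, Srsf12, Srsf5 and Hnrnpul2. In 9 genes the change turned from below to above 0. Genes called lower with TMM factors but not with total counts only were Hnrnpab, Hnrnph1, Hnrnph2, Hnrnpk, Hnrnpl, Hnrnpll and Hnrnpul1. The same held for Srsf3, Srsf6, Srsf11, Snrpb, Snrpb2, Snrpd1 and Snrpd3.

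Falls were also present before birth. E17 against E12.5 shares the E12.5 libraries with the comparison above and does not compare the P0 libraries. The P0 libraries still counted in the spread estimated for each gene, which all stages shared. This prenatal comparison gave 28 genes lower (27.8% of all genes) and 2 higher (26.9%), with a median of -0.72. With total counts only, 15 were lower (15.9% of all genes) and 2 higher (43.6%), with a median of -0.30. The 28 genes lower became 17 without E17 library 1, 19 without E17 library 2, 18 without E12.5 library 1, 20 without E12.5 library 2 and 34 without either P0 library. With TMM factors, stage means fell at every one of the 4 steps in 25 of the 43 genes, against 1686 of the 13484 genes tested. They rose at every step in 2, against 1816. The highest stage mean was at E12.5 in 32 genes and at E14 in 6, against 4270 and 1542 of the 13484 genes tested. With total counts only, 28 of the 43 genes lay above 0 from E14 to E15.5, so the count of 25 rested on the scaling. An F test over the 5 stages, with no threshold on the fold, called 35 of the 43 (81.4%), against 63.8% of all genes tested.

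**Figure D1:**
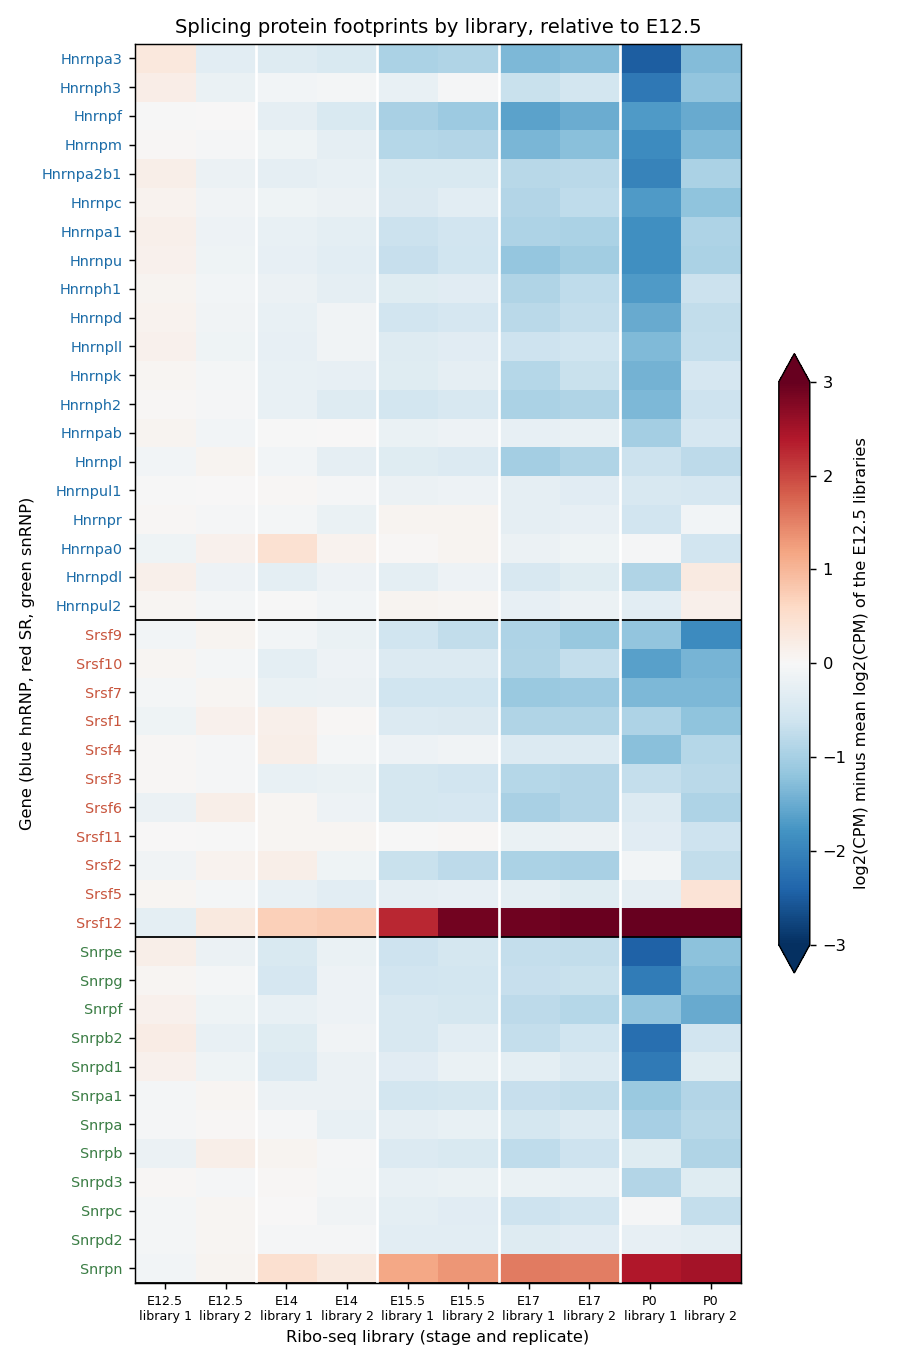
Footprint levels of the 43 splicing protein genes (rows, grouped as hnRNP, SR and snRNP and ordered within each group by their change to P0) in the 10 libraries (columns), as log2(CPM) minus the mean log2(CPM) of the E12.5 libraries, with colours ending at 3 and -3. Blue deepens from left to right in most rows, P0 library 1 stands apart from P0 library 2 in many rows, and Snrpn and Srsf12 turn red.

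Step by step, the change was spread over time. Between E12.5 and E14 limma-voom called 0 of the 43 genes, against 0.497% of all genes higher and 0.141% lower. In that step 3 genes had an unadjusted p under 0.05 (Hnrnpf, Snrpn and Srsf3), against 2137 of the 13484 genes tested. There edgeR called 0 and DESeq2 called 1, Hnrnpf. From E14 to E15.5, 7 genes were lower (19.6% of all genes) and 2 higher (16.5%), which places the fallers near the share of all genes. When libraries were scaled by total counts only, this step gave 1 lower (12.3% of all genes) and 4 higher (32.7%), with medians of 0.079 for the splicing genes and 0.29 for all genes, and 22 of the 37 genes below 0 turned to above 0, so the direction of this step rested on the scaling. From E15.5 to E17, 3 genes were lower (3.43% of all genes) and 0 higher (5.61%), edgeR also calling 0 higher and DESeq2 0. An unadjusted p under 0.05 was found for 12 genes, near the share of all genes (3458 of 13484). From E17 to P0, 9 were lower (11.1% of all genes) and 1 higher (9.46%). Total counts only gave 4 lower (7.83% of all genes) and 2 higher (13.6%) there.

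Among the genes lower at E15.5 than at E14 were the SR genes Srsf1, Srsf2, Srsf3 and Srsf7, whose log2 fold changes lay between -0.75 and -0.34. The other fallers of that step were Hnrnpf at -0.66 (SE 0.11), Hnrnpm at -0.67 (SE 0.16) and Snrpa1 at -0.36 (SE 0.10). From E15.5 to E17 the fallers were Hnrnpf, Hnrnpl and Srsf7, with log2 fold changes of -0.52, -0.58 and -0.52. The 9 genes that fell from E17 to P0 were Hnrnpab, Hnrnpc, Hnrnph3, Snrpa, Snrpe, Snrpf, Snrpg, Srsf4 and Srsf10, between -1.08 and -0.43. These step counts rested on single libraries. The 9 calls from E14 to E15.5 became 4 without E14 library 1, 3 and 4 without E15.5 library 1 or 2, and 17 without either P0 library. The 3 calls from E15.5 to E17 became 0 when any of the 4 libraries of that step was left out and 17 without either P0 library, and the 10 calls from E17 to P0 became 4 without either E15.5 library, 2 without either E17 library and 27 without P0 library 2.

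Among the hnRNP genes, 16 of 20 were lower at P0 than at E12.5 (32% of all genes tested) and 0 higher (30.1%). Their median log2 fold change was -1.06, all 20 lying below 0. With TMM factors the stage mean fell at every step in 15 of them, against 1686 of the 13484 genes tested. With total counts only, the median hnRNP change from E14 to E15.5 was 0.084, so the count of 15 rested on the scaling. From E12.5 to P0, edgeR and DESeq2 called 0 hnRNP genes higher. The 16 with an unadjusted p under 0.05 were all below 0, and 8946 of the 13484 genes tested passed that threshold in either direction. With total counts only, 9 hnRNP genes were lower (18.6% of all genes) and 1 was higher (47.8%). The riser was Hnrnpul2, which turned from -0.052 to 0.48 (limma-voom adjusted p = 0.0148).

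The A/B-type hnRNPs are abundant nuclear proteins that repress inclusion of exons and accompany mRNAs to the cytoplasm. Hnrnpa3 had 4241 and 2752 CPM at E12.5, 2612 and 2502 at E14, then 1769 and 1814 at E15.5, 1350 and 1387 at E17, and 619.3 and 1397 at P0. Its P0 libraries lay below both E12.5 libraries, and P0 library 2 lay level with E17 (log2 fold change P0 against E12.5 -1.89, SE 0.34, limma-voom adjusted p = 0.00142). Hnrnpa2b1, known for carrying mRNAs into neuronal processes, had 7609 and 5991 CPM at E12.5, 5631 and 5751 at E14, then 4914 and 4954 at E15.5, 3823 and 3862 at E17, and 1686 and 3487 at P0 (-1.49, SE 0.29, limma-voom adjusted p = 0.00203). Every P0 library was below every earlier library for this gene. Hnrnpa1, the best studied of the group, changed by -1.40 (SE 0.25) and Hnrnpab, a related protein that binds mRNAs for transport, by -0.77 (SE 0.16), both called lower. Hnrnpa0, which binds AU-rich mRNAs, changed by -0.31 (SE 0.18) and was not called.

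Hnrnpf, Hnrnph1, Hnrnph2 and Hnrnph3 bind runs of guanines through a shared type of RNA-binding domain. Hnrnpf had 1046 and 1055 CPM at E12.5, 869.5 and 763.8 at E14, then 537.3 and 497.1 at E15.5, 345.5 and 376.6 at E17, and 321.2 and 366.3 at P0. The stages up to E17 did not overlap, while E17 and P0 did, and the fall to P0 was -1.61 (SE 0.11, limma-voom adjusted p = 6.38e-06). Hnrnph3 ran later: it had 351.6 and 270.6 CPM at E12.5, 293.4 and 294.9 at E14, then 264.6 and 301.4 at E15.5, 193.0 and 209.6 at E17, and 69.7 and 135.3 at P0. Its first 3 stages overlapped and both P0 libraries were below all others (-1.63, SE 0.27, limma-voom adjusted p = 0.000861). Hnrnph1 changed by -1.17 (SE 0.28) and Hnrnph2 by -0.97 (SE 0.20), both called lower.

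Hnrnpk binds cytosine-rich RNA through KH domains and acts in transcription and translation as well as splicing. It had 3615 and 3295 CPM at E12.5, 2973 and 2914 at E14, then 2694 and 2849 at E15.5, 1905 and 2171 at E17, and 1297 and 2415 at P0. The P0 libraries fell on either side of E17 but below E12.5 (-0.98, SE 0.24, limma-voom adjusted p = 0.00792). Hnrnpd (also AUF1) binds AU-rich elements that mark mRNAs for decay. It had 1345 and 1153 CPM at E12.5, 1069 and 1155 at E14, then 830.6 and 883.2 at E15.5, 709.1 and 760.0 at E17, and 438.1 and 747.3 at P0, with P0 library 2 between the E17 libraries (-1.13, SE 0.22, limma-voom adjusted p = 0.00209).

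The remaining called hnRNP genes were Hnrnpm at -1.59 (SE 0.17), Hnrnpc, which guards against cryptic exons, at -1.45 (SE 0.16), Hnrnpu, a nuclear scaffold protein, at -1.38 (SE 0.25), the CA-repeat binders Hnrnpll at -0.99 (SE 0.18) and Hnrnpl at -0.72 (SE 0.11), and the Hnrnpu relative Hnrnpul1 at -0.49 (SE 0.087). Hnrnpl had its lowest stage mean at E17 and not at P0. Besides Hnrnpa0, 3 hnRNP genes were not called: Hnrnpr at -0.32 (SE 0.15), Hnrnpdl at -0.29 (SE 0.31) and Hnrnpul2 at -0.052 (SE 0.14).

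Of the 11 SR genes, 8 were lower at P0 than at E12.5 (32% of all genes tested) and 1 was higher (30.1%), with a median of -0.75. With total counts only, 5 were lower (18.6% of all genes) and 2 higher (47.8%). Srsf9 had 94.0 and 105 CPM at E12.5, 93.6 and 86.6 at E14, then 65.3 and 59.8 at E15.5, 52.6 and 45.4 at E17, and 43.7 and 26.9 at P0, without overlap between P0 and any earlier stage (-1.58, SE 0.20, limma-voom adjusted p = 0.00021). Srsf7, which with Srsf3 also links splicing to mRNA export, had 210.2 and 226.9 CPM at E12.5, 191.0 and 193.9 at E14, then 145.1 and 145.3 at E15.5, 100.9 and 102.0 at E17, and 85.4 and 85.5 at P0. Its 5 stages were fully separated, and its libraries agreed closely at P0, where most of the genes did not (-1.35, SE 0.084, limma-voom adjusted p = 3.88e-06). Srsf3 stopped falling at E17: it had 1156 and 1102 CPM at E12.5, 971 and 981 at E14, then 777.4 and 762.5 at E15.5, 625.3 and 614.5 at E17, and 691.5 and 647.1 at P0 (-0.75, SE 0.084, limma-voom adjusted p = 9.75e-05).

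Srsf5 did not follow the fall. It had 683.4 and 633.8 CPM at E12.5, 565.8 and 531.6 at E14, then 542.2 and 550.7 at E15.5, 535.8 and 514.9 at E17, and 544.7 and 870.0 at P0. P0 library 1 lay within the range of the earlier libraries and P0 library 2 above all of them (0.056, SE 0.19, limma-voom adjusted p = 0.81). With total counts only it was called higher at 0.59 (limma-voom adjusted p = 0.0177). Srsf2 (SC35) was not called either, at -0.41 (SE 0.20). Its P0 libraries, 509.1 and 323.6 CPM, lay above both E17 libraries at 281.4 and 275.2 CPM. The founding SR protein gene Srsf1 was called lower at -1.07 (SE 0.12), as were Srsf4 at -1.01 (SE 0.14), Srsf6 at -0.69 (SE 0.18) and Srsf11 at -0.49 (SE 0.11). The call of Srsf6 was lost without E12.5 library 2.

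Of the 12 snRNP genes, 9 were lower at P0 than at E12.5 (32% of all genes tested) and 1 was higher (30.1%), with a median of -0.95. With total counts only, 5 were lower (18.6% of all genes) and 1 higher (47.8%). The Sm ring is built from the products of Snrpb or Snrpn, Snrpd1, Snrpd2, Snrpd3, Snrpe, Snrpf and Snrpg. Snrpe had 954.8 and 750.3 CPM at E12.5, 616.8 and 743.1 at E14, then 546.9 and 591.4 at E15.5, 513.2 and 509.5 at E17, and 158.4 and 362.9 at P0. Snrpg had 403.6 and 367.0 CPM at E12.5, 270.5 and 348.0 at E14, then 257.0 and 260.7 at E15.5, 238.9 and 244.0 at E17, and 90.6 and 153.4 at P0. For both, the step from E17 to P0 was the steepest and the P0 libraries lay below all others. Their changes from E12.5 to P0 were -1.81 (SE 0.32, limma-voom adjusted p = 0.00144) and -1.68 (SE 0.22, limma-voom adjusted p = 0.000262). Snrpf had 269.1 and 225.2 CPM at E12.5, 212.3 and 222.1 at E14, then 175.3 and 171.9 at E15.5, 143.3 and 135.5 at E17, and 108.0 and 86.8 at P0, with no overlap between stages (-1.36, SE 0.13, limma-voom adjusted p = 4.12e-05).

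The other ring genes changed less or less surely. Snrpd3 fell by 0.61 on the log2 scale (SE 0.15). Snrpd2 changed by -0.27 (SE 0.086, limma-voom adjusted p = 0.0233), which passed the p threshold but not the fold threshold. Snrpd1 differed most between the P0 libraries: it had 68.1 and 231.1 CPM at P0 beside 241.1 and 225.0 at E17, and its change of -1.18 (SE 0.44, limma-voom adjusted p = 0.0451) became -0.36 without P0 library 1 and -2.12 without P0 library 2, both still called. Its call was lost when any library of the other 4 stages was left out. With edgeR and DESeq2, whose fits gave -0.98, Snrpd1 was not called (adjusted p = 0.0881 and adjusted p = 0.105). The F test over stages did not call it either (limma-voom adjusted p = 0.221).

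The proteins particular to the U1 and U2 snRNPs also fell in part. Snrpa, the A protein of the U1 particle, changed by -0.91 (SE 0.10) and Snrpa1, a protein of the U2 particle, by -0.99 (SE 0.10), both called. Snrpc, another U1 protein, changed by -0.40 (SE 0.19) and was not called. Snrpb2, the partner of Snrpa1 in U2, was called at -1.30 (SE 0.43), with 17.7 and 57.3 CPM at P0 and 52.1 and 56.2 at E17, so that P0 library 2 lay at the E17 level. Its call was lost without E12.5 library 1, and its F test over stages gave a limma-voom adjusted p of 0.14.

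**Figure D2:**
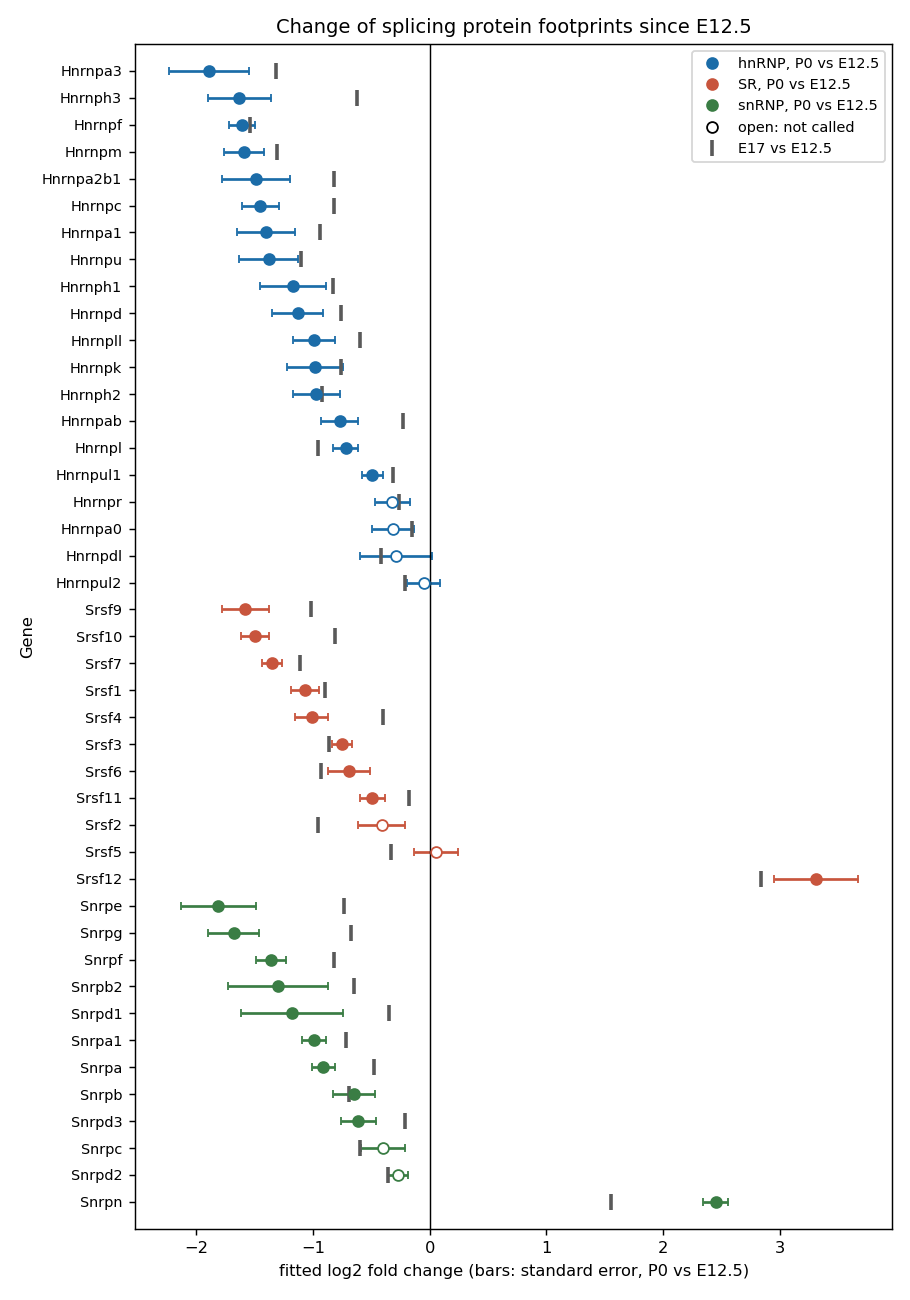
Fitted log2 fold change of each of the 43 genes for P0 against E12.5 (circles, with the standard error as bars; open where not called) and for E17 against E12.5 (grey ticks). The circles lie left of 0 for 40 genes, and the ticks lie between 0 and the circles for most of them, with Snrpn and Srsf12 far to the right at 2.45 and 3.31.

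Snrpn was the snRNP gene that rose. It encodes SmN, which takes the place of SmB in the Sm ring of neurons, and it is imprinted and expressed from the paternal allele. The gene (ENSMUSG00000102252) had 26.5 and 29.7 CPM at E12.5, 39.2 and 34.2 at E14, then 62.9 and 70.4 at E15.5, 82.8 and 81.6 at E17, and 148.0 and 158.0 at P0. No stage overlapped another, and the P0 libraries were close together. The change to P0 was 2.45 (SE 0.11), or 5.45-fold (limma-voom adjusted p = 1.07e-06), with called steps from E14 to E15.5 of 0.86 (SE 0.11) and from E17 to P0 of 0.90 (SE 0.11). Snurf is encoded by the same locus and transcript upstream of Snrpn, so their reads may be hard to separate. Its row rose from 43.5 and 47.6 CPM at E12.5 to 111.5 and 124.5 at E15.5, and reached 130.1 and 169.8 at P0 (1.72, SE 0.14, limma-voom adjusted p = 1.61e-05).

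With TMM scaling Snrpb, which encodes SmB, went the other way. It had 294.2 and 373.2 CPM at E12.5, 349.2 and 322.2 at E14, then 249.5 and 241.4 at E15.5, 196.8 and 214.0 at E17, and 256.1 and 176.8 at P0 (-0.65, SE 0.18, limma-voom adjusted p = 0.013). This call was lost without E12.5 library 2 or without P0 library 2, and with sample quality weights or only the 2 stages. With total counts only it was lost too, at -0.12 (limma-voom adjusted p = 0.577). Of the footprints on both genes together, Snrpn held 8.27% and 7.36% at E12.5, 10.1% and 9.6% at E14, then 20.1% and 22.6% at E15.5, 29.6% and 27.6% at E17, and 36.6% and 47.2% at P0. These shares are not corrected for coding length, and their course over the stages is what can be read from them.

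A ratio of 2 genes in the same library needs no scaling between libraries, and 11 pairs of related genes were compared in this way. Each was tested over the 5 stages by an exact permutation test over the 945 ways of arranging the 10 libraries in pairs, on the F statistic, in which changes in either direction count, with Benjamini-Hochberg adjustment over the 11 pairs. The ratio changed in 4 pairs. For Snrpn over Snrpb the geometric mean ratio went from 0.0847 at E12.5 through 0.109, 0.271 and 0.401 to 0.719 at P0, an 8.48-fold change (exact p = 0.00106, the smallest that the arrangements allow, adjusted p = 0.00582). For Srsf12 over Srsf10 it went from 0.00208 to 0.0626, a 30.1-fold change (exact p = 0.00106, adjusted p = 0.00582).

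Srsf12 and Srsf10 encode closely related SR proteins, and Srsf10 is known to act as a repressor of splicing when dephosphorylated. Srsf12 (ENSMUSG00000054679) had few footprints. Its counts were 10 and 22 at E12.5, 25 and 36 at E14, then 107 and 119 at E15.5, 160 and 140 at E17, and 72 and 287 at P0. Scaled, these were 0.55 and 0.82 CPM at E12.5, 1.10 and 1.14 at E14, then 3.22 and 5.02 at E15.5, 5.08 and 5.26 at E17, and 7.83 and 6.85 at P0, with no overlap of P0 and any earlier stage. The change to P0 was 3.31 (SE 0.36), or 9.91-fold (limma-voom adjusted p = 8.51e-05), and the step from E14 to E15.5 was called at 1.80 (SE 0.28). Srsf10 had 347.3 and 322.3 CPM at E12.5, 272.8 and 300.6 at E14, then 251.9 and 252.1 at E15.5, 179.8 and 202.6 at E17, and 107.9 and 127.7 at P0. Its stages did not overlap, and its change to P0 was -1.50 (SE 0.12, limma-voom adjusted p = 1.24e-05).

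Since this pair of relatives moved in opposite directions, the 100 bases before their annotated start sites are shown (RefSeq, GRCm38.p6, both on the plus strand, chr4:135855971-135856070 for Srsf10 and chr4:33209172-33209271 for Srsf12). Capitals mark a GC box, GGGCGG or its reverse complement CCGCCC, which both genes carry in this window.
Srsf10: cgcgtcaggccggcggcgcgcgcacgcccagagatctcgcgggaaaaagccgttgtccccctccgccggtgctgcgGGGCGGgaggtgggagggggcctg
Srsf12: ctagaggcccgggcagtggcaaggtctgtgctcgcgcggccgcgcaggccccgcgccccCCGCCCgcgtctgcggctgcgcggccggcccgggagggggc

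Both windows are rich in G and C. RefSeq windows of 250 bases before the start were found for 39 of the 43 genes, 55 windows in all since some genes have several starts. A GC box on either strand was present in 38 of the 55 (69.1%), against 32.7% of 32851 windows of all genes. A CCAAT box (CCAAT or ATTGG) was present in 24 (43.6%, against 33.8%), the ETS core CCGGAAG or CTTCCGG in 12 (21.8%, against 6.91%), and a TATA box (TATAAA or TTTATA) in 5 (9.09%, against 12.4%). Srsf10 held a CCAAT box as well in its 250 bases, and Srsf12 did not. These are letter matches, given as a description of the windows.

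The pairs Hnrnpdl over Hnrnpd and Srsf7 over Srsf3 changed by less. Hnrnpdl, a relative of Hnrnpd that also binds AU-rich RNA, had 227.0 and 184.6 CPM at E12.5, 166.0 and 182.8 at E14, then 168.0 and 184.7 at E15.5, 147.8 and 158.1 at E17, and 108.7 and 246.8 at P0. Its P0 libraries lay on either side of all others, while its ratio to Hnrnpd went from 0.164 to 0.286 (1.74-fold, exact p = 0.00317, adjusted p = 0.0116), with both P0 ratios above all others. Srsf7 over Srsf3 went from 0.194 at E12.5 to 0.128 at P0 (0.66-fold, exact p = 0.0116, adjusted p = 0.032).

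For 7 pairs the ratio did not pass the test. These were Snrpb2 over Snrpa (adjusted p = 0.987 by the exact permutation test), Hnrnpll over Hnrnpl (0.41), Hnrnpa2b1 over Hnrnpa1 (0.0629), and Hnrnph2 over Hnrnph1, Hnrnpul2 over Hnrnpul1, Srsf9 over Srsf1 and Srsf6 over Srsf4 (0.151 each). From E12.5 to P0 their ratios changed by between 0.705-fold, for Snrpb2 over Snrpa, and 1.33-fold, for Hnrnpul2 over Hnrnpul1. Between other stages some moved further: Srsf6 over Srsf4 went from 4.62 at E17 to 8.71 at P0, and Hnrnpll over Hnrnpl from 0.241 to 0.152. The range of the log2 ratio over stages was 0.92 for Srsf6 over Srsf4, above the 0.87 of Hnrnpdl over Hnrnpd. For Hnrnpa2b1 over Hnrnpa1, whose genes were both called lower, the ratio stayed between 3.48 and 4.13 at all 5 stages.

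**Figure D3:**
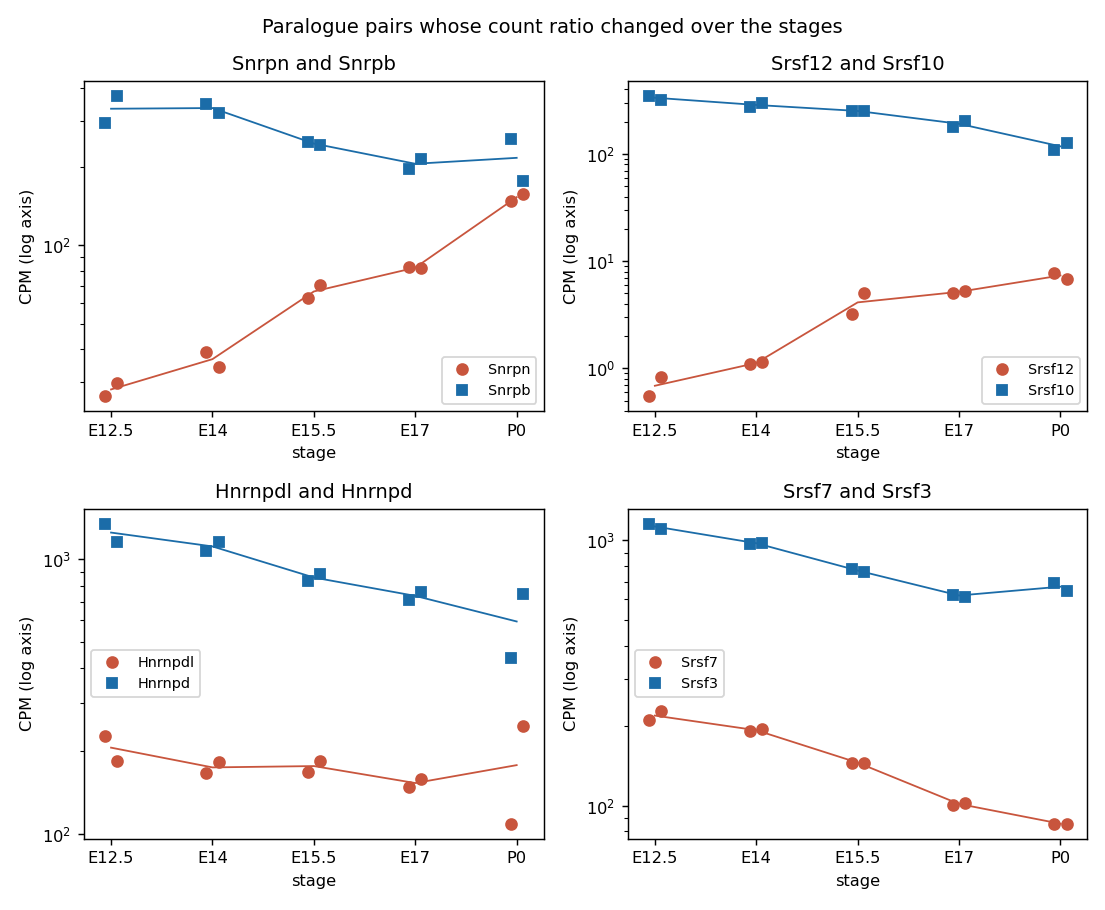
Levels of the 4 pairs of related genes whose ratio changed, in CPM on a log axis, for each library (points) with lines through the stage means. Snrpn approaches Snrpb (148.0 and 158.0 against 256.1 and 176.8 CPM at P0), Srsf12 climbs while Srsf10 declines, and the P0 points of Hnrnpdl and Hnrnpd are far apart within each gene.

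The difference between the P0 libraries is given gene by gene because it enters the error of every comparison. The fit to all 10 libraries gave each gene a single spread, which all stages shared. For Hnrnpa3 the SE was 0.34 for P0 against E12.5 and 0.34 for E17 against E15.5. With only the 2 stages fitted, the 33 genes lower at P0 than at E12.5 became 23. The 3 genes lower at E17 than at E15.5 became 18. Such fits also hold fewer libraries, so how much of this came from the shared spread was not tested. Over the 43 genes the log2 ratio of P0 library 2 to library 1 had a median of 0.45 and an SD of 0.63, from -0.69 for Srsf9 to 1.76 for Snrpd1, and 29 genes were higher in library 2. Over all genes that averaged 500 counts or more, the same ratio had a median of 0.075 and an SD of 0.53. At E15.5 and E17 the SD over the 43 genes was 0.11 and 0.082. Leaving out P0 library 1, the shallower of them, gave 36 genes lower and 3 higher at P0 than at E12.5, and leaving out P0 library 2 gave 34 lower and 2 higher. The size of single falls moved with the library: Hnrnpa3 changed by -1.29 without P0 library 1 and by -2.47 without P0 library 2, and Snrpe by -1.22 and -2.42.

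**Figure D4:**
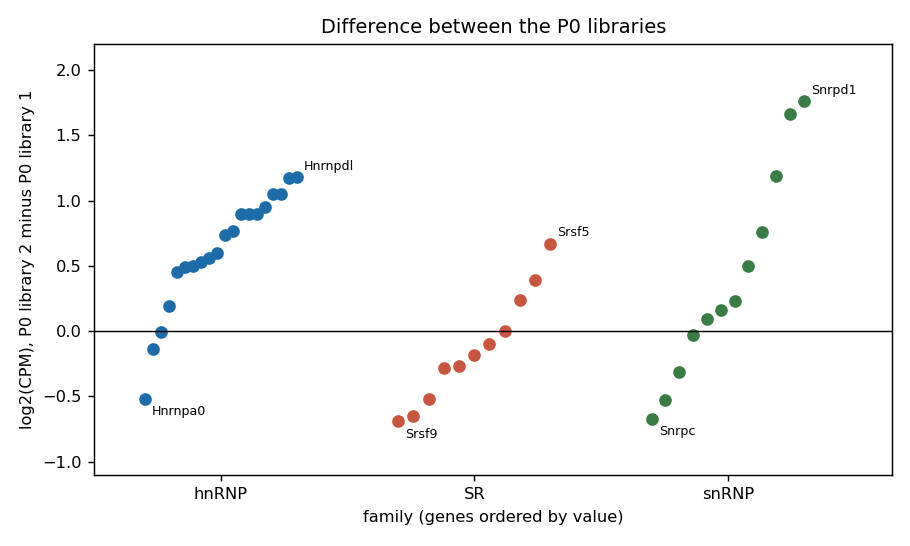
Log2 ratio of P0 library 2 to P0 library 1 for the 43 genes, by family and ordered by value. Points run from -0.69 (Srsf9) to 1.76 (Snrpd1), and most hnRNP genes lie above 0.

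With TMM factors, other genes of the splicing machinery, from lists of known components, were lower at P0 in most cases too. The kinases of SR proteins were an exception. Values with total counts only are not given for these lists. That scaling moved the median of all genes tested from -0.013 to 0.51. Of 38 genes of the snRNPs and the spliceosome core, 25 were lower and 1 was higher, with a median of -0.61. The largest falls were those of Lsm5 at -1.60 (SE 0.26) and Lsm2 at -1.50 (SE 0.12), which belong to the ring that binds U6 RNA, and of Prpf3, a component of the U4/U6 snRNP, at -1.33 (SE 0.18). Prpf8, the scaffold at the centre of the spliceosome, was the gene that rose, at 0.61 (SE 0.10), from 21.1 and 23.5 CPM at E12.5 to 34.3 and 34.0 CPM at P0. Of 10 SR-related genes 7 were lower and 3 not called (median -0.72), led by Tra2a at -1.48 (SE 0.20) and Pnn at -1.14 (SE 0.29). Of 13 genes for the assembly of Sm rings 8 were lower and 5 not called (median -0.57), led by Gemin6 at -1.18 (SE 0.18) and Gemin4 at -1.04 (SE 0.18). Of 7 tested kinases that phosphorylate SR proteins, 2 were lower and 5 not called (median -0.40), the fallers being Clk2 and Clk3 at -0.59 each.

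Of 10 further hnRNP proteins with other symbols, 9 were lower and 1 was higher at P0 (median -0.74). Ptbp1, a repressor of neuronal exons in progenitors, had the largest fall at -2.80 (SE 0.17), from 416.0 and 513.0 CPM at E12.5 to 79.0 and 56.9 CPM at P0. Cirbp, a cold-inducible RNA-binding protein, rose by 2.07 on the log2 scale (SE 0.12), from 95.5 and 96.8 to 375.9 and 435.4 CPM. As for the 43 genes, these counts stand beside 32% lower and 30.1% higher among all genes tested, all with TMM factors.

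Several rows share reads with near-identical copies, and multi-mapping reads were kept in the alignment. The row of Snrpg and that of the pseudogene Gm8186 differed by at most 1 count in every library, so the level of Snrpg cannot be told apart from that of its copy. The pseudogene Gm9242 held 19.1% of the counts of Hnrnpa3 at a near-constant ratio (SD of the log2 ratio 0.011), and Srsf3-ps held 35.8% of those of Srsf3 (SD 0.055). Changes over stages in these rows are therefore those of the gene and its copies together.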

How the data were processed

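Counts of ribosome footprints per gene were taken as the authors deposited them, as whole numbers in 1 column per library, 10 libraries in all. According to the study's methods and the submitters' processing notes, adapters were trimmed, duplicate reads and reads of rRNA, tRNA and snoRNA removed, and the rest aligned to GENCODE M12 with STAR, with multi-mapping reads kept. The notes name STAR 2.7.0 and the methods an earlier version. The methods derive length-corrected gene-level counts with DeepShape-prime and tximport, and whether the deposited counts are that output is not given in the sources used here.

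Genes with at least 32 footprints over the 2 libraries of some stage (13484 of 22373) were fitted with limma-voom (limma 3.58.1 in R 4.3.3) on all 10 libraries, with TMM factors from edgeR (4.0.16) and stage as the only term. The study also used voom, but its methods do not state the scaling or the model terms. A call needed a Benjamini-Hochberg adjusted p under 0.05 over all genes tested and a fold of at least 1.25. The procedure was tested on data simulated with the same spread at all stages for each gene. That test therefore did not hold the wider difference between the P0 libraries. Alternatives were the quasi-likelihood test of edgeR, DESeq2 (1.42.0), other scalings, filters, weights and sample sets, a replicate block, and leaving out each library. E17 in place of P0 was added after seeing the data. Values in every library were given for the 3 largest called rises and falls per family that averaged 100 counts or more, the 2 genes with the highest mean CPM per family, and the genes of up to 4 pairs whose ratio changed. Examples from the lists are those with the largest called change, and Snurf, Snrpd1, Snrpb2, Srsf2 and the copies were described after their values were seen. The genes and lists were chosen with earlier results of these data known. Libraries are biological duplicates from pooled brains, and the p-values measure the spread between such pools. Depth, at least 7544404 counts per library, gives low relative counting error except for Srsf12. Replicate numbers did not pair the libraries: differences between replicates correlated between stages at -0.635 to 0.427 over 4559 genes.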

Additional observations from a re-analysis of the deposited data

How the results depend on the processing

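From E12.5 to P0, 35 splicing genes were called (33 lower, 2 higher), 23 with total counts only (19 lower, 4 higher), 25 with only the 2 stages (23 lower, 2 higher), 30 with E17 in place of P0 (28 lower, 2 higher) and 32 to 39 without 1 library. The F test called 35, with total counts only 21, and 30 to 42 without 1 library. The counts for single steps were unstable. From E12.5 to E14 DESeq2 called 1, as did leaving out a P0 library (0 to 1). From E14 to E15.5 the 9 calls became 5 with total counts only and 17 with sample quality weights or only the 2 stages (3 to 17 without 1 library). From E15.5 to E17 the 3 calls became 5 with DESeq2, 17 with quality weights and 18 with only the 2 stages (0 to 17 without 1 library). From E17 to P0 the 10 calls became 6 with total counts only or quality weights and 0 with only the 2 stages (2 to 27 without 1 library). With a replicate block the 5 comparisons gave 0, 9, 3, 8 and 35 calls and the F test 35, against 10 from E17 to P0 without the block and the same counts in the other 4 and the F test. From E12.5 to E17 it gave 27 genes lower against 28. The replicate numbers did not pair the libraries. Of the pairs, 4 changed, 5 without P0 library 1 and 7 without P0 library 2. The causes were not tested.

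Some directions turned. From E12.5 to P0, Hnrnpdl was at 0.24 with total counts only and from -0.91 to 0.27 without 1 library, and Srsf5 at -0.061 with quality weights, -0.33 with E17 in place of P0 and from -0.27 to 0.40 without 1 library. From E14 to E15.5, total counts only turned 22 of the 43 genes from below to above 0, and of those described by library it gave 0.089 for Hnrnpa2b1, 0.24 for Hnrnph3, 0.21 for Hnrnpk, 0.044 for Snrpe, 0.051 for Snrpg, 0.11 for Srsf10 and 0.29 for Srsf5. Hnrnpdl was at -0.00078 with DESeq2, -0.0014 with its size factors and -0.054 to 0.085 without 1 library, Hnrnph3 at -0.15 to 0.035 without 1 library, and Srsf5 at 0.006 with no low-count filter and -0.05 to 0.04 without 1 library.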
